A study of Mus musculus with 6 samples.

Results

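Vascular basement membrane genes were examined in sorted tumor endothelial cells (ECs) of WT and Apelin-knockout (KO) mice. They are 10 genes, taken by name from the 24346 gene symbols in each file. The rule used no measured value, but the genes were chosen with earlier results of these data known. They comprise the collagen IV chains Col4a1 and Col4a2, the laminin chains Lama4, Lama5, Lamb1 and Lamc1, the nidogens Nid1 and Nid2, the perlecan gene Hspg2 and the matricellular gene Sparc. All 10 were found.

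RNA-sequencing was performed on 3 WT and 3 Apelin-KO samples. Every mouse was on the C57BL/6 background, was used at 8 to 10 weeks of age and carried a subcutaneous tumor of MC38, a mouse colon carcinoma line, taken at day 19. The sample titles of both groups also name saline, which the methods do not mention for this experiment. The knockout concerns the host animal, and no promoter or Cre that would limit it to ECs is named, whereas the MC38 cells were the same line in both groups. Cells positive for CD31, an endothelial surface protein, and negative for CD45, a leukocyte surface protein, were sorted from digested tumors. Whether each sample came from a separate mouse is not given in the labels, so the p-values measure the spread between these samples only.

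Expression is given as FPKM, a fragment count divided by transcript length and by library depth, which allows levels of different genes to be compared per length. The 2 groups were compared with limma on log2(FPKM + 1), as WT minus Apelin-KO, for the 10964 genes whose mean over the 6 samples reached 1 FPKM. The depth, estimated from the steps in low FPKM, lay between 9000000 and 10260000 reads per sample. Apln, the gene removed in the knockout, was 432.4, 434.8 and 504.1 FPKM in WT ECs and 9.96, 17.48 and 24.35 FPKM in Apelin-KO ECs. Its log2 fold change was 4.73, and it was the 1 gene, or 0.00912% of genes tested, with an adjusted p-value under 0.05 (0.00747, limma with Benjamini-Hochberg adjustment, or 0.077 without WT 2 and 0.108 without Apelin-KO 2). The sorted cells carried their defining markers, since the 15 endothelial markers summed to between 6065 and 7384 FPKM in WT samples and to between 7540 and 8113 FPKM in Apelin-KO samples.

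The basement membrane is the thin sheet of matrix on which ECs lie and which they share with pericytes. Laminin trimers bind to cell surfaces and form a first network, collagen IV forms a second, covalently linked network, and nidogens and perlecan bind to both. In tumor vessels this sheet is known to be loosely attached and uneven, and fragments of several of its proteins act on angiogenesis.

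Col4a1 and Col4a2 encode the chains of the common collagen IV trimer. In the GENCODE annotation of GRCm38, Col4a1 lies on the minus strand at chr8:11198423-11312826 with 52 exons and Col4a2 on the plus strand at chr8:11312805-11449287 with 48 exons, so that the genes stand head to head and share 22 bases at their starts. Their promoter windows, 250 bases before to 50 after the start, are shown because the genes, whose levels are compared as a ratio further on, start from the same stretch of DNA. The windows come from RefSeq (GRCm38.p6), chr8:11312777-11313076 on the minus strand and chr8:11312555-11312854 on the plus strand, each written 5′ to 3′. Capitals mark the 78 bases that both windows hold, which read as reverse complements of each other.
Col4a1: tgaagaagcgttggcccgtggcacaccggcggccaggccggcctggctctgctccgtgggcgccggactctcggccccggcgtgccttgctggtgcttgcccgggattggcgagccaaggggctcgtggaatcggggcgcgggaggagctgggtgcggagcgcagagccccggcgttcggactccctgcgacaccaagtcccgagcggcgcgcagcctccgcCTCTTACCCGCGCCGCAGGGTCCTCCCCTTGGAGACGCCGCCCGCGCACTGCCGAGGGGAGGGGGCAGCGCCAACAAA
Col4a2: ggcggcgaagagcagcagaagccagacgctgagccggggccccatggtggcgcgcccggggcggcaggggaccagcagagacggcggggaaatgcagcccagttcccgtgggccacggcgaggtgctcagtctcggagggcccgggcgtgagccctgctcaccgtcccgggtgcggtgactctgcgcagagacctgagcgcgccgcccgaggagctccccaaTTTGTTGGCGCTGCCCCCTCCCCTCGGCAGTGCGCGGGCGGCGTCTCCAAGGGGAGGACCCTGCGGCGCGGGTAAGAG
Windows were found for 7 of the 10 genes. Both strands were searched for 3 motifs. The CCAAT box, spelled by its name, occurred 1 time in each of the windows of Col4a1 and Col4a2, and in 37.4% of all 32851 windows of this length. The GC box, spelled GGGCGG, occurred 1 time for Col4a1 and 3 times for Col4a2, and in 35.7% of all windows. The TATA box, spelled TATAAA, was in no window of these 7 genes and in 13.6% of all windows.

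Levels of the 10 genes spanned more than 2 orders of magnitude. Sparc, with a mean of 4037 FPKM over the 6 samples, ranked 6 among all genes, and Col4a1, with 1710 FPKM, ranked 16. Col4a2 (951.9 FPKM), Nid2 (463.6 FPKM), Nid1 (451.6 FPKM), Lamc1 (309.0 FPKM), Lamb1 (280.2 FPKM), Lama4 (226.9 FPKM), Hspg2 (120.7 FPKM) and Lama5 (14.71 FPKM) followed. Nid2 and Nid1 could not be ordered, since Nid2 was the higher in 4 of 6 samples. The ranges of Lamc1 and Lamb1 overlapped, as did those of Lamb1 and Lama4, although the first of each pair was the higher in 6 of 6 samples. All other neighbors in this order were separated without overlap. Together the 10 genes made up between 1.38% and 1.85% of the FPKM of a sample, and Sparc, Col4a1 and Col4a2 made up between 76.2% and 80.6% of that share. Lama5, the gene with the fewest reads, rested on an estimated 1321 reads or more per sample, which gives a counting error of at most 2.75%, below the spread between samples.

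**Figure D1:**
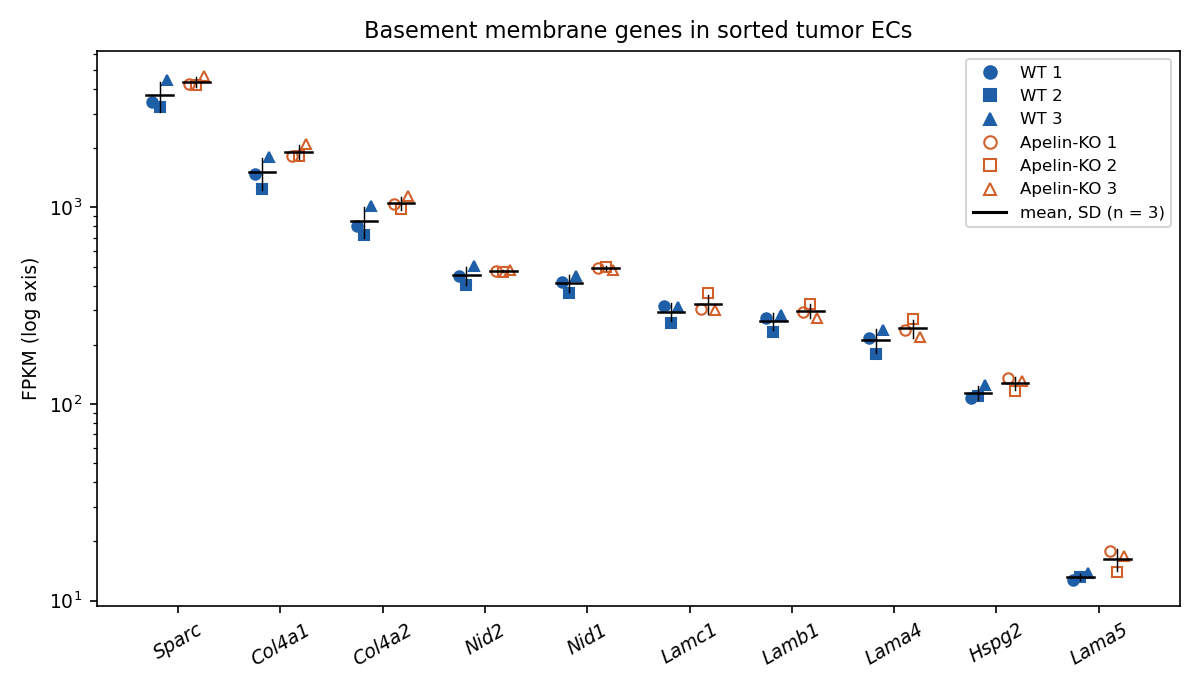
FPKM of each basement membrane gene in each sample, on a log axis, with the mean and SD of 3 samples per genotype. Sparc stood at 3243 to 4664 FPKM and Lama5 at 12.72 to 17.92 FPKM. The differences between genotypes were small beside this span of levels, though not beside those between neighbors such as Nid2 and Nid1.

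Collagen IV was the most abundant structural component. Col4a1 was 1479, 1240 and 1802 FPKM in WT 1, 2 and 3, and 1823, 1821 and 2094 FPKM in Apelin-KO 1, 2 and 3. The groups did not overlap, but the highest WT sample lay close to the lowest Apelin-KO samples. The WT mean was 1507 ± 282 FPKM and the Apelin-KO mean 1913 ± 157 FPKM (SD, n = 3 each). The log2 fold change of Col4a1 was -0.36 with a standard error (SE) of 0.15 (adjusted p = 0.525, limma with Benjamini-Hochberg adjustment), and the 95% confidence interval ran from -0.72 to 0.01. The fold change was -0.23 without WT 2 and -0.49 without WT 3. Col4a2 was 809.0, 723.2 and 1016 FPKM in WT samples and 1041, 983.4 and 1139 FPKM in Apelin-KO samples, where WT 3 lay above Apelin-KO 2. Its log2 fold change was -0.32 (SE 0.15, adjusted p = 0.540, limma), or -0.21 without WT 2. Neither collagen chain passed the test across all genes. Both were lowest in WT 2 and highest in Apelin-KO 3. The 2 chains kept nearly the same proportion in every sample, with 1.83, 1.71 and 1.77 FPKM of Col4a1 per FPKM of Col4a2 in WT samples and 1.75, 1.85 and 1.84 in Apelin-KO samples. The coefficient of variation of this ratio was 3.07% over the 6 samples, and the genotypes were not separated (exact permutation test, two-sided, p = 0.4).

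Laminins of vessels contain either the α4 chain, encoded by Lama4 and present throughout the vascular tree, or the α5 chain, encoded by Lama5 and found in mature vessels. Lama4 (chr10:38965515-39110188) was 215.8, 179.6 and 239.2 FPKM in WT samples and 237.8, 270.0 and 219.3 FPKM in Apelin-KO samples. These ranges overlapped, and the log2 fold change of Lama4 was -0.20 (SE 0.14, adjusted p = 0.686, limma). Lama5 (chr2:180176373-180225859) was 12.72, 13.12 and 13.77 FPKM in WT samples and 17.92, 13.92 and 16.79 FPKM in Apelin-KO samples. Lama5 did not overlap between the genotypes, but the gap of 1.12% between WT 3 and Apelin-KO 2 was smaller than the counting error of up to 2.75%. The Apelin-KO mean was 1.23-fold the WT mean, and the log2 fold change was -0.27 (SE 0.12, adjusted p = 0.529, limma).

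The α chains pair with the β1 chain of Lamb1 and the γ1 chain of Lamc1 in both kinds of trimer. Lamb1 (chr12:31265234-31329644) was 275.1, 232.9 and 282.3 FPKM in WT samples and 295.3, 322.3 and 273.3 FPKM in Apelin-KO samples. Lamc1 (chr1:153218922-153332786) was 314.9, 259.4 and 310.4 FPKM in WT samples and 305.1, 365.3 and 299.2 FPKM in Apelin-KO samples. For both genes the ranges of the genotypes overlapped, and Lama4, Lamb1 and Lamc1 were all lowest in WT 2 and highest in Apelin-KO 2. The log2 fold change was -0.17 (SE 0.12, adjusted p = 0.676, limma) for Lamb1 and -0.13 (SE 0.13, adjusted p = 0.777) for Lamc1. Single samples weighed on these values, which were -0.09 for both Lama4 and Lamb1 without WT 2 and -0.04 for Lamc1 without Apelin-KO 2. Under quantile normalization the value of Lamc1 was -0.06. The ratio of Lamb1 to Lamc1 was nearly as even as that of the collagen chains, between 0.874 and 0.968 with a coefficient of variation of 3.69% over the 6 samples (exact permutation test, two-sided, p = 0.4). The ratio of Lama4 to Lama5 was uneven, at 17.0, 13.7 and 17.4 in WT samples and 13.3, 19.4 and 13.1 in Apelin-KO samples (exact permutation test, two-sided, p = 0.8). Lama4 thus exceeded Lama5 at least 13.1-fold in every sample.

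The nidogens are single-chain proteins that link laminin to collagen IV. Nid1 (chr13:13437551-13512269) was 417.0, 368.8 and 448.0 FPKM in WT samples and 494.9, 499.6 and 481.2 FPKM in Apelin-KO samples. Every Apelin-KO sample lay above every WT sample, and the Apelin-KO samples lay close together, at 491.9 ± 9.57 FPKM against 411.3 ± 39.9 FPKM for WT (SD, n = 3 each). The log2 fold change of Nid1 was -0.26 (SE 0.11, adjusted p = 0.522, limma). The 95% confidence interval ran from -0.52 to -0.01, and the unadjusted p was 0.044. Over 15 other settings of processing and samples this unadjusted p lay between 0.024 and 0.15 (limma). Nid2 (chr14:19751265-19811787) was 447.6, 403.9 and 502.3 FPKM in WT samples and 476.6, 469.6 and 481.6 FPKM in Apelin-KO samples, all of them within the WT range. Its log2 fold change was -0.08 (SE 0.11, adjusted p = 0.842, limma), and the interval allows an Apelin-KO level between 0.883-fold and 1.27-fold that of WT. Without WT 2 the log2 fold change of Nid2 was -0.0053, and without WT 3 it was -0.16. In the annotation, 437 of the 5174 exon bases of Nid2 (8.45%) are shared with Rtraf on the opposite strand, and 143 of the 6943 of Nid1 (2.06%) with an antisense gene. The strand setting of the counting is not stated, so reads in these bases may not belong to the nidogens.

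The proportion of the nidogens was the one ratio of 4 in which the genotypes did not overlap. Nid1 per Nid2 was 0.932, 0.913 and 0.892 in WT samples and 1.04, 1.06 and 0.999 in Apelin-KO samples. The ratio in Apelin-KO ECs was 1.13-fold that in WT ECs, a difference larger than the SD within either group (0.0199 and 0.0327, n = 3). The exact permutation test gave p = 0.1 (two-sided), the smallest value that 3 against 3 samples allow, and 0.4 when adjusted over the 4 ratios. With any of the 6 samples left out, the difference lay between -0.20 and -0.16 on the log2 scale. Its direction could not change, since the groups did not overlap.

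**Figure D2:**
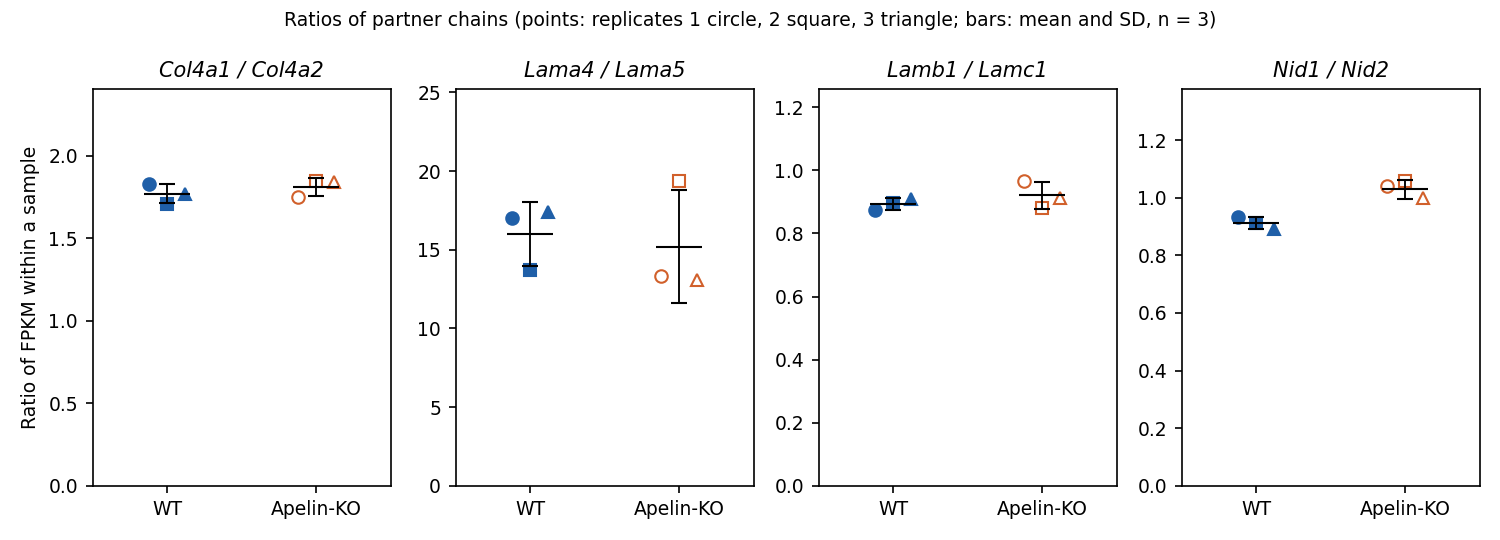
Ratio of the FPKM of 2 partner genes within each sample, with mean and SD of 3 samples per genotype and axes from 0. The ratio of Nid1 to Nid2 was 0.892 to 0.932 in WT samples and 0.999 to 1.06 in Apelin-KO samples, whereas the other 3 ratios overlapped.

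The promoter windows of Nid1 and Lama5 are shown as those of the members besides Col4a1 whose groups did not overlap. They lie at chr13:13437352-13437651 on the plus strand and chr2:180225810-180226109 on the minus strand (RefSeq, GRCm38.p6), and capitals mark the CCAAT, GC and TATA boxes on either strand.
Nid1: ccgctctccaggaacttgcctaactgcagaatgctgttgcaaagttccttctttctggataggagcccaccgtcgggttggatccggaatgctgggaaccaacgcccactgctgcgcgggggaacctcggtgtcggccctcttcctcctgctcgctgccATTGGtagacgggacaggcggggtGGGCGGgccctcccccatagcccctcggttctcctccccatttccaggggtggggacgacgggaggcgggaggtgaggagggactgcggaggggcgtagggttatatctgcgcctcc
Lama5: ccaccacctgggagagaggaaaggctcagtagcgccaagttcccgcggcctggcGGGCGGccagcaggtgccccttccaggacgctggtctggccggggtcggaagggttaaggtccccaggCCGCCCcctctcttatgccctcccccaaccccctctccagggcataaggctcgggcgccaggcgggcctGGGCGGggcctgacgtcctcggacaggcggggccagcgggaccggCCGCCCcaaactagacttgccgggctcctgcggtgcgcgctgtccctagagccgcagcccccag
The window of Nid1 held 1 CCAAT box and 1 GC box, and that of Lama5 held 4 GC boxes and no CCAAT box. G and C made up 64.7% of the window of Nid1, 72.7% of that of Lama5, 74.0% of that of Col4a1 and 73.7% of that of Col4a2. Of other members whose groups overlapped, Hspg2 had 5 GC boxes and 70.3% G and C. Lamb1 had 1 CCAAT box, 2 GC boxes and 63.7%, and Sparc had none of these boxes and 55.3%. Any link between the windows and the levels was not tested.

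Hspg2 encodes perlecan, the large heparan sulfate proteoglycan that holds growth factors in the basement membrane. Hspg2 (chr4:137468769-137570630, 97 exons) was 107.9, 109.3 and 124.3 FPKM in WT samples and 135.0, 116.6 and 131.4 FPKM in Apelin-KO samples, with WT 3 above Apelin-KO 2. Its log2 fold change was -0.16 (SE 0.11, adjusted p = 0.667, limma). Sparc (chr11:55394500-55423183) encodes a secreted protein that binds collagen IV and shapes its deposition. Sparc was 3437, 3243 and 4457 FPKM in WT samples and 4225, 4198 and 4664 FPKM in Apelin-KO samples, so that WT 3 lay above 2 of the 3 Apelin-KO samples. Its log2 fold change was -0.25 (SE 0.14, adjusted p = 0.620, limma), or -0.15 without WT 2, -0.38 without WT 3 and -0.11 under quantile normalization.

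Viewed as a group, all 10 genes had a lower mean in WT than in Apelin-KO ECs, as did 52.5% of all genes tested, and 5 of the 10 (Lama4, Lamb1, Lamc1, Nid2 and Hspg2) no longer did when the samples were centred on the mean of the endothelial markers, which shifts all genes alike and left 11.3% of them with a lower mean in WT ECs. The log2 fold changes lay between -0.36 and -0.08 with a median of -0.22, where the median over all genes tested was -0.01. Under quantile normalization the median of the members was -0.15 and that of all genes -0.02. None of the 10 had an adjusted p-value under 0.05 (limma with Benjamini-Hochberg adjustment), and 1 of them, Nid1, had an unadjusted p-value under 0.05, where 9.42% of all genes tested did, 4.25% in this direction and 5.17% with a higher level in WT ECs. The share of the members was therefore near the background. Groups without overlap were seen for Col4a1, Lama5 and Nid1, or 3 of 10 genes, against 14.4% of all genes tested, and 7.77% in this direction. The gap between the nearest samples of the groups was 1.04% for Col4a1, 1.12% for Lama5 and 7.42% for Nid1, and under quantile normalization Col4a1 overlapped and Lama5 was the member with an unadjusted p-value under 0.05 in place of Nid1. WT 2 was the lowest sample for 8 of the 10 genes and WT 1 for the other 2, whereas WT 3 lay near the Apelin-KO samples. Without WT 3, the groups did not overlap for 8 of the 10 genes, nor for 30% of all genes, and 4 genes (Col4a1, Col4a2, Nid1 and Sparc) had an unadjusted p-value under 0.05, where 11.2% of all genes did. Without WT 2, 3 genes did not overlap, where 20.1% of all genes did not, 0 had an unadjusted p-value under 0.05 (limma), where 4.91% of all genes did, and the median log2 fold change was -0.15.

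**Figure D3:**
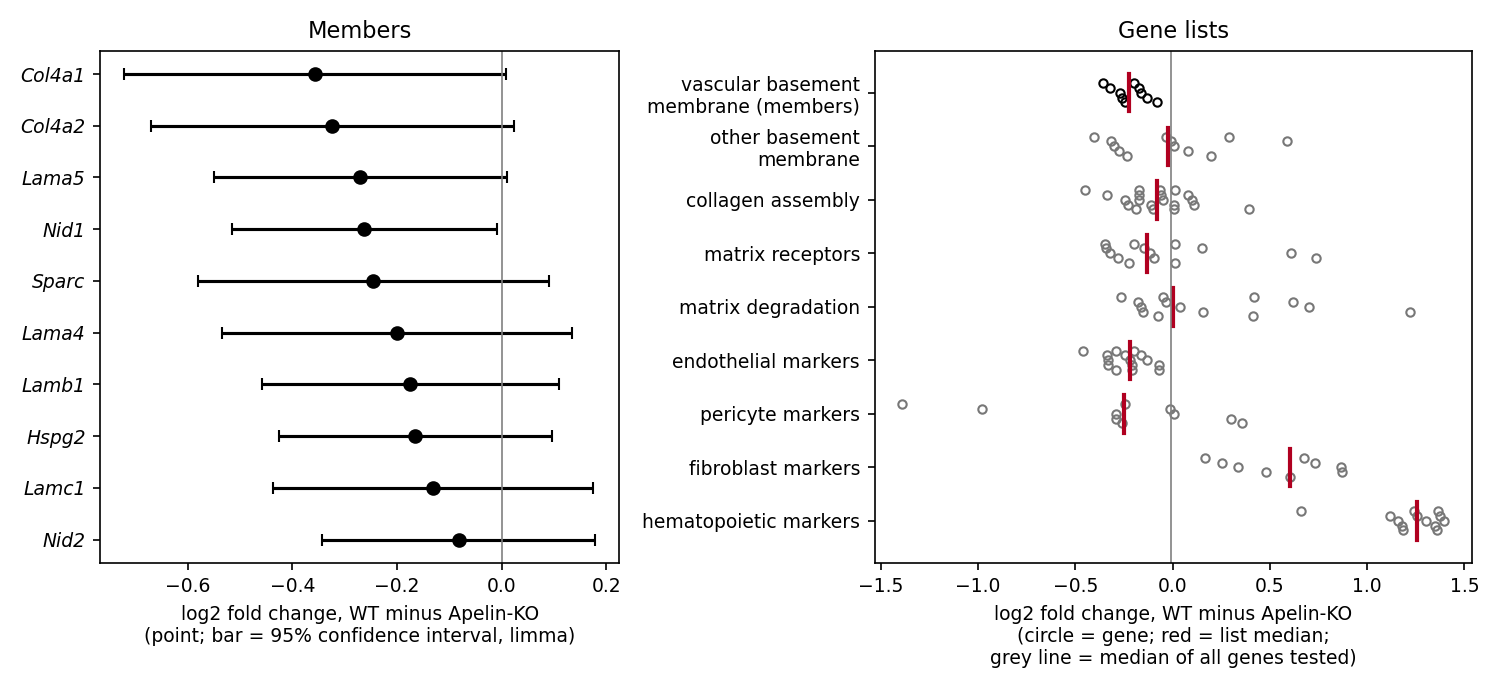
Left, log2 fold change (WT minus Apelin-KO, from FPKM as deposited) of each basement membrane gene with its 95% confidence interval from limma; right, the same value for each tested gene of the members and of 8 other lists, with the list median in red. The interval of Nid1 ended at -0.01 and those of the other 9 genes reached past 0, and the medians of the members and of the endothelial markers were both -0.22, where centring on the latter adds the same amount to every gene and turns 5 of the 10 members.

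The level of the 10 genes ran with that of the endothelial markers from sample to sample. The mean log2(FPKM + 1) of the members was 8.42, 8.26 and 8.59 in WT samples and 8.64, 8.64 and 8.65 in Apelin-KO samples. That of the 15 endothelial markers, which include Pecam1, Cdh5 and Kdr, was 8.16, 7.97 and 8.27 in WT samples and 8.36, 8.33 and 8.43 in Apelin-KO samples. Their median log2 fold change was -0.22, the same as that of the members, and all 15 had a lower mean in WT ECs. Of the 15, 4 had an unadjusted p-value under 0.05 (Tie1, Cdh5, Pecam1 and Vwf, adjusted p between 0.509 and 0.515, limma). Of all genes tested, 4.25% were so called as lower in WT ECs. With the samples centred on the mean of these markers, an alternative chosen after seeing the data, the median log2 fold change of the members was 0.01 and that of all genes 0.23. In that setting 0 of the 10 members had an unadjusted p-value under 0.05, where 18.7% of all genes did, and Nid2, with its higher values in WT, was the one member without overlap, where 28.3% of all genes did not overlap.

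Most hematopoietic and fibroblast markers had the opposite direction. Of all genes tested, 5.17% had an unadjusted p-value under 0.05 with a higher level in WT ECs and 4.25% with a lower one (limma). All 13 hematopoietic markers tested had a higher mean in WT ECs (median log2 fold change 1.25), 7 of them at an unadjusted p-value under 0.05 and 0 at an adjusted one (limma, lowest adjusted p 0.503). The most abundant, Lyz2, was 185.0, 380.2 and 101.3 FPKM in WT samples and 40.87, 126.6 and 114.0 FPKM in Apelin-KO samples, and Tyrobp was the one without overlap. The 15 listed genes summed to between 336.9 and 1188 FPKM in WT samples and between 146.6 and 399.9 FPKM in Apelin-KO samples, with Ptprc, which encodes CD45, at 1.265 to 4.841 FPKM in WT and 0.043 to 1.695 FPKM in Apelin-KO samples. The highest sum was that of WT 2, the sample in which most members were lowest. All 9 fibroblast markers tested had a higher mean in WT ECs as well (median 0.60), 5 of them (among them Col1a1, Col3a1 and Dcn) at an unadjusted p-value under 0.05. Fap, which lay under the filter and was chosen after its values were seen, went the other way, at 0.078, 0.133 and 0.043 FPKM in WT samples and 0.468, 0.427 and 0.337 FPKM in Apelin-KO samples. The 12 listed fibroblast genes summed to between 209.0 and 364.0 FPKM in WT and between 140.2 and 216.9 FPKM in Apelin-KO samples. Of 10 pericyte markers tested, 7 had a lower mean in WT ECs (median -0.25, or -0.02 when centred on the endothelial markers), and their sum ranged from 588.5 to 753.2 FPKM in WT and from 660.9 to 769.7 FPKM in Apelin-KO samples, most of it from Mcam, which ECs also express. Of the pericyte markers, Rgs5 (3.484, 3.171 and 3.657 FPKM in WT samples and 6.826, 7.861 and 8.667 FPKM in Apelin-KO samples, adjusted p = 0.214, limma) and Higd1b (adjusted p = 0.501) had an unadjusted p-value under 0.05. Of 11 markers of intestinal epithelial tumor cells, Krt20 alone reached the 1 FPKM mean (6.409 to 20.57 FPKM, overlapping), 2 were at 0 in every sample, and Epcam was at or below 0.264 FPKM. The part of these cells in the values of the basement membrane genes was not tested, and fewer cells of a type and less RNA per cell cannot be told apart in bulk samples.

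**Figure D4:**
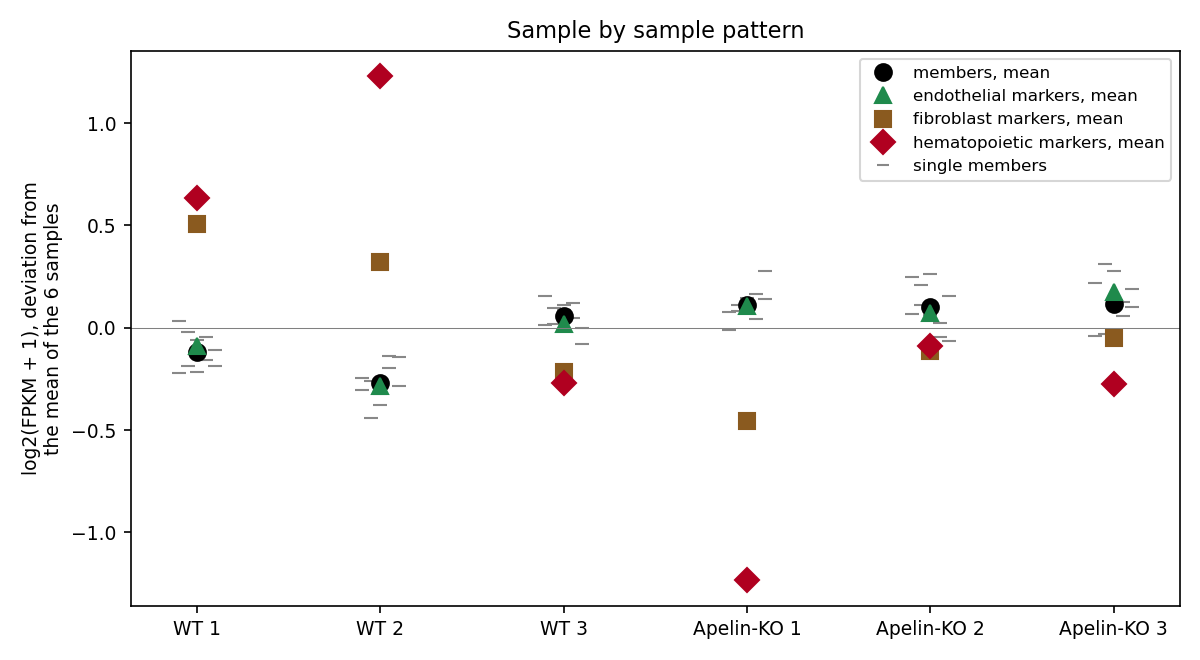
Deviation of log2(FPKM + 1) from the mean of the 6 samples, for each basement membrane gene (dashes) and for the mean of the members and of 3 marker lists. The members and the endothelial markers were lowest in WT 2, the sample in which the hematopoietic markers were highest.

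Other genes of the basement membrane pathway were taken from 4 further lists. Their values and calls are given from FPKM as deposited. Centring on the endothelial markers, in which 18.7% of all genes had an unadjusted p-value under 0.05, left 0 of the genes of these lists called as lower in WT ECs, so that Lamb2, P3h2 and Bcam lost that call. In that setting 1 structural gene, 0 assembly genes, 2 receptors and 5 degradation genes were called as higher in WT ECs. These calls follow the shift of all genes, of which 466 were called as lower in WT ECs as deposited and 38 when centred, and nothing on the lists is read from them. As deposited, 9.42% of all genes tested had an unadjusted p-value under 0.05 (limma). Of 24 further structural genes, 12 had a mean of at least 1 FPKM, and 1 of these passed that threshold (0 at an adjusted one). This was Lamb2, the laminin β2 chain, at 25.20, 24.53 and 23.44 FPKM in WT samples and 34.06, 26.27 and 31.94 FPKM in Apelin-KO samples (log2 fold change -0.32, standard error 0.12, adjusted p = 0.515). The most abundant were Vwa1 (558.1 and 559.6 FPKM in WT and Apelin-KO ECs), which encodes a perlecan-binding protein, Col18a1 (498.6 and 584.2 FPKM), the source of endostatin, and Sparcl1 (473.5 and 570.0 FPKM), a relative of Sparc. Their groups overlapped. The collagen IV chains that make up other trimers were low, with Col4a5 between 0.541 and 1.409 FPKM, Col4a6 between 0.016 and 0.441 FPKM, and Col4a3 and Col4a4 at or below 0.015 FPKM in every sample.

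Collagen chains are hydroxylated, folded and crosslinked by a set of enzymes and chaperones. Of 23 such genes, 20 were tested. An unadjusted p-value under 0.05 was found for 9.42% of all genes tested and for 1 of these 20 (0 at an adjusted one, limma). This was P3h2, a prolyl 3-hydroxylase of collagen IV, at 10.84, 15.15 and 10.63 FPKM in WT samples and 15.24, 17.51 and 17.88 FPKM in Apelin-KO samples (log2 fold change -0.45, standard error 0.15, adjusted p = 0.506). The 3 most abundant were the collagen chaperone Serpinh1 (612.8 and 689.7 FPKM in WT and Apelin-KO ECs), P4hb (484.0 and 504.9 FPKM), a subunit of prolyl 4-hydroxylase, and Ppib (394.1 and 411.5 FPKM), a prolyl isomerase, with log2 fold changes of -0.17, -0.06 and -0.06.

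Receptors for these proteins were tested for all 14 listed genes. Bcam, a receptor of the laminin α5 chain, was 9.17, 8.78 and 8.87 FPKM in WT samples and 12.35, 10.74 and 11.28 FPKM in Apelin-KO samples, without overlap (log2 fold change -0.32, standard error 0.10, adjusted p = 0.501, limma). Ddr2, a collagen receptor, was 4.44, 5.62 and 2.29 FPKM in WT samples and 1.67, 1.74 and 2.52 FPKM in Apelin-KO samples (log2 fold change 0.74, standard error 0.26, adjusted p = 0.509). These were the 2 receptors of 14 with an unadjusted p-value under 0.05 (limma), where 9.42% of all genes tested had one. Itgb1, the β1 integrin chain, was the most abundant at 619.3 and 661.7 FPKM, followed by Itgb3 (106.5 and 107.2 FPKM) and Stab1 (77.91 and 77.03 FPKM), a scavenger receptor that takes up Sparc.

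Of 18 genes that degrade the matrix or restrain its degradation, 14 were tested and 2 had an unadjusted p-value under 0.05 (0 at an adjusted one, limma). Both had a higher mean in WT ECs, where 5.17% of all genes tested were called in that direction and 9.42% in either. Mmp9, a gelatinase that cleaves collagen IV, was 42.23, 36.09 and 18.90 FPKM in WT samples and 6.08, 19.35 and 16.41 FPKM in Apelin-KO samples (log2 fold change 1.22, standard error 0.45, adjusted p = 0.513). Timp2, an inhibitor of such enzymes, was 137.0, 122.6 and 78.46 FPKM in WT samples and 60.63, 66.86 and 88.82 FPKM in Apelin-KO samples (log2 fold change 0.62, standard error 0.24, adjusted p = 0.515). In both genes WT 3 overlapped with Apelin-KO samples, and both had their 2 highest values in WT 1 and WT 2. These samples had the highest sums of hematopoietic markers and also of fibroblast markers. The most abundant genes, the cathepsins Ctsb (410.6 and 420.0 FPKM) and Ctsl (300.0 and 315.8 FPKM) and the membrane-bound Mmp14 (306.8 and 315.3 FPKM), had log2 fold changes between -0.08 and -0.03.

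The genes whose log2(FPKM + 1) followed the mean standardized level of the 10 members most closely over the 6 samples were Pabpn1, Cdk9, Ehd4, Tmc6 and Zadh2, with Pearson correlations between 0.986 and 0.992. They were the first 5 of 7868 genes with a mean of 5 FPKM or more, ranked by likeness over 6 samples that share their scaling. Ehd4, an endocytic ATPase and the most abundant of these, was 173.8, 160.4 and 186.6 FPKM in WT samples and 192.7, 197.1 and 193.6 FPKM in Apelin-KO samples.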

How the data were processed

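RNA of CD31+ CD45- tumor ECs was measured in 3 WT and 3 Apelin-KO samples, grouped by their titles. Libraries came from a stranded mRNA kit and were read as single ends of 75 bases. The authors mapped them to mm10 and deposited FPKM. The submitters' processing notes name TopHat2 2.1.1, Bowtie2 2.2.4, SAMtools 1.0 and Cufflinks 2.2.1, and the methods name other versions of some. The annotation, the strand setting and filters are not given in the sources used here. The deposited values are FPKM, 1 per gene symbol and sample, so error from counting is known only through the depth estimate.

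From these, log2(FPKM + 1) was compared with limma 3.58.1 in R 4.3.3 (two-sided moderated test, no trend, no block) for genes averaging 1 FPKM or more, and p-values were adjusted over all of them by the Benjamini-Hochberg method. The pseudocount shrinks fold changes of low genes. The method was tested on simulated data. Ratios within a sample were compared by exact permutation tests. Depth was estimated from 3742 genes with a single annotated transcript, assuming 200-base fragments. Of the low values, 67.24% to 70.02% came to within 0.1 of a whole read (20% by chance), so whole reads could not be recovered. No count test was run, and reads per gene are estimates from the longest coding transcript. Positions are from GENCODE M21 (GRCm38, the build of mm10).

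Named were the 10 members, Apln, and of each other list the 3 most abundant genes and up to 4 with the lowest unadjusted p under 0.05, of which the text gives those that bear on the members. Outside this rule, Fap, Kdr, Epcam, Col4a3, Col4a4, Col4a5 and Col4a6 were named after their values were seen. The members and lists were chosen with earlier results of these data known. Alternatives changed the pseudocount, filter, scaling, variance, weights, block and samples.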

Additional observations from a re-analysis of the deposited data

How the results depend on the processing

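All 10 basement membrane genes kept a lower mean in WT ECs under the 10 other settings of pseudocount, scale, weights and samples that could change their fold changes (100 of 100 values). Many of these values could hardly change direction. With a sample left out, lack of overlap fixed the direction of Col4a1, Lama5 and Nid1. A pseudocount of 0.1 and upper quartile scaling moved the median of the members only from -0.2224 to -0.2229 and -0.2076. Over these 10 settings and 5 settings of filter, variance and block, the lowest adjusted p was 0.264 (limma). Centring on the endothelial markers, chosen after seeing the data, adds the same amount to the log2 fold change of every gene, which alone fixes the members that turn. In that setting the median of the members was 0.0145. Still lower in WT ECs were 5, Col4a1 (-0.1205), Col4a2 (-0.0864), Lama5 (-0.0338), Nid1 (-0.0253) and Sparc (-0.0081). Lama4 (0.0371), Lamb1 (0.0626), Lamc1 (0.11), Nid2 (0.15) and Hspg2 (0.0722) turned. Of the members, 0 had an unadjusted p under 0.05 (limma, 18.7% of all genes) and 1 did not overlap (28.3% of all genes). In all, 2046 genes had an unadjusted p under 0.05, of which 1.86% were lower in WT ECs against 45.1% as deposited. The number of members with an unadjusted p under 0.05 was 0 with a pseudocount of 0.1 (8.75% of all genes) or upper quartile scaling (9.58%), 1 with quantile normalization (Lama5 in place of Nid1, 9.54%), 2 without a filter (8.89%) or with array weights (9.98%), 3 with a filter of 5 FPKM (9.23%), 4 with an intensity trend (10%), and 0 to 4 with a sample left out (4.91% to 11.2%). Genes with an adjusted p under 0.05 numbered 2 without a filter, with a filter of 5 FPKM and with the trend, 0 with each gene's own variance, and 0 to 3 with a sample left out. Apln (4.73) then had an adjusted p of 0.497 with its own variance, 0.077 without WT 2 and 0.108 without Apelin-KO 2, and its log2 fold change lay between 4.3999 and 5.0047 with a sample left out. Leaving out a sample gave 536 (without WT 2) to 1228 (without WT 3) genes with an unadjusted p under 0.05, 3 to 8 members without overlap where 20.1% to 30% of all genes did not overlap (8 and 30% without WT 3, 5 and 27.4% without Apelin-KO 2), and a log2 ratio of Lama4 to Lama5 between -0.0109 (without Apelin-KO 3) and 0.27. The cause of these shifts was not tested. The labels do not say whether the replicate numbers pair the samples. Deviations from the group mean correlated at -0.139, 0.207 and -0.019 for same-numbered samples. For differently numbered samples they correlated between -0.195 and 0.212, so these values cannot decide it. With the number as a replicate block, 2 members (Col4a1 and Col4a2) had an unadjusted p under 0.05, as had 8.14% of all genes, Nid1 did not (p = 0.0869, limma), and the paired exact test of Nid1 to Nid2 gave p = 0.25, the smallest that 3 pairs allow. The depth limits Lama5 most, at 1321 estimated reads.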
